A study of Mus musculus with 10 samples.

Results

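This account covers the genes of mouse chromosome 6 as a block, read in chromosome order in 10 clonal 3T3-L1 lines. 3T3-L1 is an established mouse fibroblast line whose cells can be turned into fat cells by hormones. The members were all genes that RefSeq places on chromosome 6 and that the array measured with a probe set naming 1 gene, each represented by its brightest probe set. Of 1099 such genes, 37 that are named in the selection rule were left out, among them genes of adipogenesis, imprinted genes and the Hoxa cluster. The 1062 that remained are part of 19938 genes measured in all. Of the 1062, 791 were bright enough to be tested and 271 were set aside as dim, while 16339 genes of all chromosomes were tested.

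The study picked single colonies of 3T3-L1 by dilution, grew them, and classed each clonal line by how much triglyceride it stored after a cocktail of insulin, dexamethasone and IBMX. The 5 lines with little storage form the Low class (clones 1E7, 2D7, 2F1, 4D11 and 4H4, here Low replicates 1 to 5). The 5 lines with much storage form the High class (clones 3F4, 4D2, 4E3, 5C4 and 5D4, here High replicates 1 to 5). The labels give all 10 lines the same state: proliferating, not yet confluent, in DMEM with 10% serum, with no treatment and no engineered allele named, and RNA was taken before any differentiation. Each line is 1 clone on 1 array, so differences between lines have no replicate of their own, and the 5 lines of a class are the replicates of that class. Nothing in the labels gives a karyotype or a DNA measurement of any line.

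A cell line carried for many passages can gain or lose whole chromosomes or long pieces of them, and each clone taken from it fixes the set that its founder cell happened to hold. When the number of copies of a chromosome differs, the RNA of many of its genes tends to shift together by a small amount, because transcription follows the number of templates. A block of neighbouring genes can also move together through shared chromatin domains, and expression arrays alone do not separate these cases. A running median along the chromosome is the usual way to see such small shared shifts, since it ignores the large changes of single genes.

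Values are log2 signals. For each gene, the mean over the 10 lines was subtracted, and each line was then set so that its median over all tested genes is 0. A deviation of 0 is therefore the level of an average line, and because the deviations of a gene are taken from a shared mean, a line far below makes the others look slightly higher.

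The genes that show the pattern most plainly are bright genes that were lowest of all lines in Low replicate 2 and highest in High replicate 3. The promoters shown are those of the 4 such genes with the widest range over lines among the brightest members, with a mean log2 signal of at least 11.09. Some dimmer genes of this kind had wider ranges. The 4 were taken since they are spread along the chromosome and shared their lowest and highest lines. They are RefSeq sequences of build GRCm38.p6, from 250 bases before to 50 bases after the start of the gene, written 5′ to 3′ on the strand of the gene. Capitals mark matches on either strand to 3 motifs. The letters searched were TATAAA for the TATA box. For the box bound by the factor NF-Y they were CCAAT. For the GC box bound by Sp1 and its relatives they were GGGCGG. Each motif was counted on its own, so matches of different motifs may overlap. Ndufa4 encodes a protein of mitochondrial cytochrome c oxidase, Aqp1 a water channel of the plasma membrane, Mthfd2 a mitochondrial enzyme of folate metabolism, and Bid a pro-apoptotic member of the BCL2 family.
Ndufa4, chr6:11907401-11907700, minus strand: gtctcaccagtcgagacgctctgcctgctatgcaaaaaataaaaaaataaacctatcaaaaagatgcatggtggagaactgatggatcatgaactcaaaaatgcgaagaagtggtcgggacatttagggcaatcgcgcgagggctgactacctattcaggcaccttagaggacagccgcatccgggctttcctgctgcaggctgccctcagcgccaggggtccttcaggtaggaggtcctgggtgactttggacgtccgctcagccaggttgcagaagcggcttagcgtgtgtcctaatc
Aqp1, chr6:55336049-55336348, plus strand: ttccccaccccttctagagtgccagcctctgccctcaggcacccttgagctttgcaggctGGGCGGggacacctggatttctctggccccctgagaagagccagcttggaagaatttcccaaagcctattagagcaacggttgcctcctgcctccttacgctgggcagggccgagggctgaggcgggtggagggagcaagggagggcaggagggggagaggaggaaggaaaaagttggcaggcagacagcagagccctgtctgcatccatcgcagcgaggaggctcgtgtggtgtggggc
Mthfd2, chr6:83317555-83317854, minus strand: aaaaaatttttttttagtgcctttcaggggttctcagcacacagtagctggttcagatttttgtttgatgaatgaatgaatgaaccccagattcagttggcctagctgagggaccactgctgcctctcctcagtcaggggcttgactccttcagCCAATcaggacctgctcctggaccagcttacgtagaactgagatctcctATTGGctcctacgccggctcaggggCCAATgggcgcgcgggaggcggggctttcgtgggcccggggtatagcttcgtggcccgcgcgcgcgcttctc
Bid, chr6:120916775-120917074, minus strand: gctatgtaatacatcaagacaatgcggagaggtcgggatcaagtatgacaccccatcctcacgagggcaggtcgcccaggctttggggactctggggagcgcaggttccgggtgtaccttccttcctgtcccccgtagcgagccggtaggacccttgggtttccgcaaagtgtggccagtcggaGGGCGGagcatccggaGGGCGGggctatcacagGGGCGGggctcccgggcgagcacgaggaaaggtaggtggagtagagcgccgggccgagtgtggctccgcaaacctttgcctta

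The 4 promoters had little in common in these letters. Ndufa4 held none of the 3 motifs, Aqp1 held 1 GC box, Mthfd2 held 3 matches to CCAAT, and Bid held 3 GC boxes. Their GC content ran from 53.0% to 63.3%, and the number of CpG pairs from 8 to 22. Over the 659 tested members with a listed promoter, 55.7% held a GC box, 34.9% CCAAT and 10.2% a TATA box, with a median GC content of 58.3%. The 12144 promoters of tested genes on other chromosomes gave 57.5%, 38.0% and 8.75%, with a median GC content of 59.7%. Among the members, GC boxes stood in 67.4% of the promoters of the 344 brighter genes and in 42.9% of those of the 315 dimmer genes. A match describes the letters of the window and is no sign of a bound factor.

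Low replicate 2 had the lowest chromosome 6 signal of the 10 lines, and High replicate 3 the highest. In Low replicate 2 the median deviation over the 791 members was -0.12, a ratio of 0.918, and the middle part of the genes (from the lower to the upper quartile) lay between -0.25 and -0.029. In High replicate 3 the median was 0.13, a ratio of 1.09, with quartiles of -0.026 and 0.25. These are small shifts shared by many genes, not large changes of a few.

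The other 8 lines lay between these 2. Low replicates 1, 3, 4 and 5 had medians of 0.00026, -0.0085, 0.025 and -0.027. High replicates 1, 2, 4 and 5 had medians of 0.035, 0.054, -0.036 and -0.040. Several of these smaller medians depended on the 2 extreme lines through the mean over lines. Without Low replicate 2, High replicate 1 was at 0.019, High replicate 4 at -0.061, and Low replicates 1, 3, 4 and 5 at -0.010, -0.022, 0.011 and -0.045. Without High replicate 3, High replicate 4 was at -0.020 and Low replicates 1, 3 and 5 at 0.012, 0.0027 and -0.014. High replicate 4 was also at -0.022 without High replicate 2, and Low replicate 5 at -0.018 without High replicate 1. Low replicates 1 and 3 thus had no settled side of 0. The classes were not apart in this order, and their ranges overlapped. The Low lines averaged -0.027 ± 0.057 (SD, n = 5) and the High lines 0.027 ± 0.069 (SD, n = 5). High replicates 3, 2 and 1 had the highest medians. Whether the class has a part in the order was not tested on these medians. The lines at the 2 ends of the order belong to different classes, but High replicates 4 and 5 lay below 4 of the 5 Low lines.

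Of the members, 18.5% were above 0 in Low replicate 2, against 51.7% of the genes of other chromosomes in that line. In High replicate 3 the share was 70.2%, against 48.9% elsewhere. High replicate 2, at 68.8%, and High replicate 1, at 63.7%, also had more members above 0 than below, with smaller deviations. High replicate 5 had 35.0% above 0. Over the 10 lines, the share on other chromosomes stayed between 48.9% and 51.7%.

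The extremes of single genes followed the same 2 lines. Low replicate 2 was the lowest of the 10 lines in 290 of 791 members (36.7%), against 11.3% of all tested genes. High replicate 3 was the highest in 169 members (21.4%), against 5.7% of all tested genes. Both held at once in 92 members (11.6%), against 1.17% of all tested genes. High replicate 4 was the highest in 26.2% of the members, but it was also the highest in 28.9% of all tested genes, so that share is close to its background.

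Set directly against each other, High replicate 3 exceeded Low replicate 2 in 598 of 791 members (75.6%), with a median difference of 0.26, a ratio of 1.19. For the members each line had first been set to a median of 0, as above. On the other chromosomes the difference was taken from the signals without that step, so these values are on another scale. There it had a median of -0.035, and 42.0% of the genes were higher in High replicate 3. The mean of a gene over lines cancels in the member difference. The level set to 0 in each line was still found with that mean, so it depends on the other lines.

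Compared with the 19 other chromosomes, chromosome 6 had the largest shift within each of these 2 lines. Over all 200 medians of 1 chromosome in 1 line, the chromosome 6 medians of High replicate 3 and Low replicate 2 were the largest in size. In Low replicate 2 the other chromosomes ran from -0.082 on chromosome 15 to 0.10 on chromosome 11. In High replicate 3 they ran from -0.062 on chromosome 8 to 0.053 on chromosome 5. In the other 8 lines chromosome 6 ranked from 3 to 20 by size, and in Low replicate 1 it had the smallest shift of the 20 chromosomes. In High replicate 4, chromosome 12 lay farther from 0 than chromosome 6, with a median of -0.097.

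**Figure D1:**
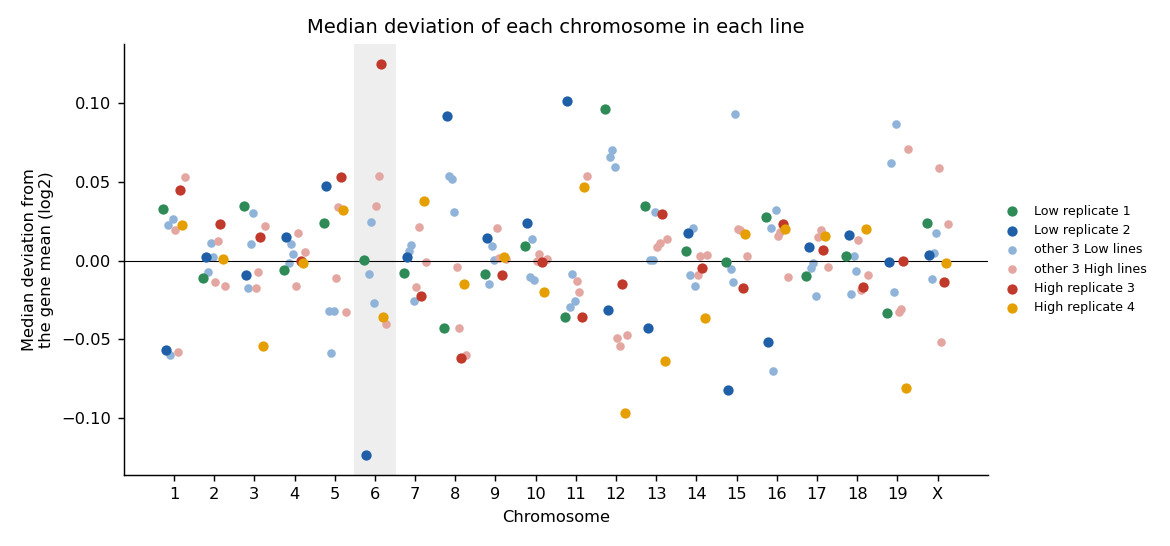
Median deviation from the gene mean (log2, vertical axis) of the tested genes of each chromosome (horizontal axis), 1 point for each of the 10 lines, with chromosome 6 shaded. On chromosome 6, High replicate 3 sits at 0.13 and Low replicate 2 at -0.12, farther from 0 than any other point; each point is a median over genes of 1 array, so it has no error bar.

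The shift ran along the whole chromosome. In gene order, a median over 51 neighbouring genes was taken at each of 741 places. In Low replicate 2 all 741 running medians were below 0, from -0.21 to -0.069. In High replicate 3 all were above 0, from 0.027 to 0.21. High replicate 2 was above 0 at 740 places with smaller values, the highest being 0.099, and High replicate 5 was below 0 at 714. Neighbouring places share most of their genes, so these are descriptions of a profile and not counts of independent values.

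A threshold of 0.15 was used to mark the places where a shift was large. Low replicate 2 was below -0.15 at 177 places (23.9%), High replicate 3 was above 0.15 at 250 (33.7%), and High replicate 4 was below at 20 (2.70%). The other 7 lines never passed it on chromosome 6. Over all lines the threshold was passed at 447 of 7410 places on chromosome 6 (6.03%) and at 1368 of 144990 on the other chromosomes (0.944%). Such places also occurred elsewhere: chromosome 13 in Low replicate 2 had 41.8% of its places past the threshold, and chromosome 12 in High replicate 4 had 38.8%. A stretch, here at least 10 places in a row past the threshold, was found in 3 of 10 lines on chromosome 6 and in 17 of 190 line and chromosome pairs elsewhere (8.95%). The share past the threshold leaned on the other extreme line through the mean over lines: it was 3.51% in Low replicate 2 without High replicate 3, and 15.1% in High replicate 3 without Low replicate 2. In Low replicate 2 it was also lower without High replicate 1 (13.1%) or Low replicate 4 (13.6%). The medians over the chromosome moved less, to -0.11 and 0.11 without the opposite line.

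Low replicate 2 had 5 stretches below the threshold. The first ran from Gpr37, an orphan receptor gene, to Mgam, a gene of an intestinal glucosidase, and held 97 genes with a median of -0.14. Its brightest genes were Calu, Mtpn, Ptn, Tmem209 and Tnpo3, of which Calu encodes a calcium-binding protein of the secretory pathway and Tnpo3 a nuclear import receptor. The other 4 overlapped or touched along the middle of the chromosome: from Cd8b1 to Spr (80 genes, median -0.14), from Gcfc2 to Dusp11 (61 genes, -0.16), from Mogs to Gkn1 (65 genes, -0.16) and from Vax2 to Abtb1 (71 genes, -0.15). Their brightest genes included the actin-binding thymosin gene Tmsb10, the smooth muscle actin gene Actg2, the RNA-binding protein genes Pcbp1 and Cnbp, the translocon gene Sec61a1 and the late endosome GTPase gene Rab7. In the 5 stretches, between 76.1% and 86.3% of the genes were below 0 in that line.

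High replicate 3 had 5 stretches above the threshold. They ran from Gimap9 to Mad2l1 (75 genes, median 0.16), from Qrfprl to Spr (99 genes, 0.15), from Eva1a to Gm5577 (93 genes, 0.15), from Uroc1 to 4933440N22Rik (120 genes, 0.17) and from Jagn1 to Pex26 (77 genes, 0.16). Among their brightest genes were Mad2l1 of the spindle checkpoint, Serbp1 (an RNA-binding protein), Gars (glycyl-tRNA synthetase), Hnrnpf (a splicing regulator), Brk1 (a subunit of the WAVE actin complex) and Fbln2 (fibulin 2 of the matrix). Between 68.8% and 74.7% of the genes in them were above 0 in that line. The genes from Cd8b1 to Spr thus lay in a low stretch of Low replicate 2 and in a high stretch of High replicate 3.

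High replicate 4 had a single stretch, from Gm7932 to Qrfprl (68 genes, median -0.14). Its brightest genes were Aqp1, Hibadh (an enzyme of valine breakdown), Gars, Cycs (cytochrome c) and Cbx3 (a heterochromatin protein). The genes within it were spread widely, with quartiles of -0.32 and 0.13. This line's deviations also changed with brightness on all chromosomes, as described next.

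**Figure D2:**
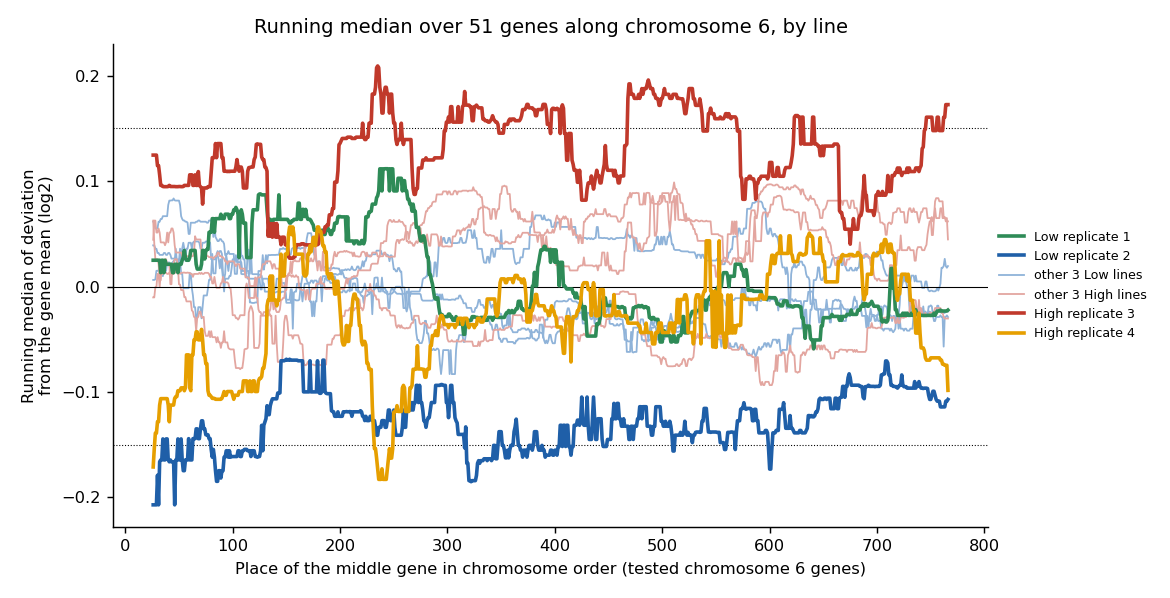
Running median over 51 genes of the deviation from the gene mean (log2, vertical axis) against the place of the middle gene in chromosome order (horizontal axis), 1 line for each clone; dotted lines mark the threshold of 0.15 on both sides. Low replicate 2 stays below 0 and High replicate 3 above 0 at all 741 places. Other lines are not nearer to 0 at every place. High replicate 4 dips to -0.18 and there lies farther from 0 than Low replicate 2.

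The shift was larger in the brighter members. The 791 members were put into 4 equal groups by mean log2 signal, and the median of each was set against genes of other chromosomes in the same range of signal. In Low replicate 2 the difference was -0.016 in the dimmest group (means from 6.39 to 7.39) and -0.072 in the next. It was -0.28 in the third group and -0.23 in the brightest (means from 11.09 to 13.78). In High replicate 3 the same 4 differences were 0.012, 0.073, 0.20 and 0.16.

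A dim probe set lies near the background of the array, where it responds little to its RNA. Whether this has a part in the smaller shift of the dimmer members was not tested. High replicate 2 followed with 0.10 and 0.097 in the 2 brighter groups, and High replicate 5 with -0.084 and -0.081. High replicate 4 had a deviation of 0.17 in the dimmest group, but genes of other chromosomes had 0.16 there, so the difference was 0.0093. Its difference in the third group was -0.063. The 271 members set aside as dim gave medians of -0.041 in Low replicate 2 and -0.030 in High replicate 3, so these medians did not show the separation of these lines. Genes set aside on other chromosomes were not taken as their background. In the dimmest tested group, genes of other chromosomes were at -0.026 in Low replicate 2 and -0.062 in High replicate 3.

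**Figure D3:**
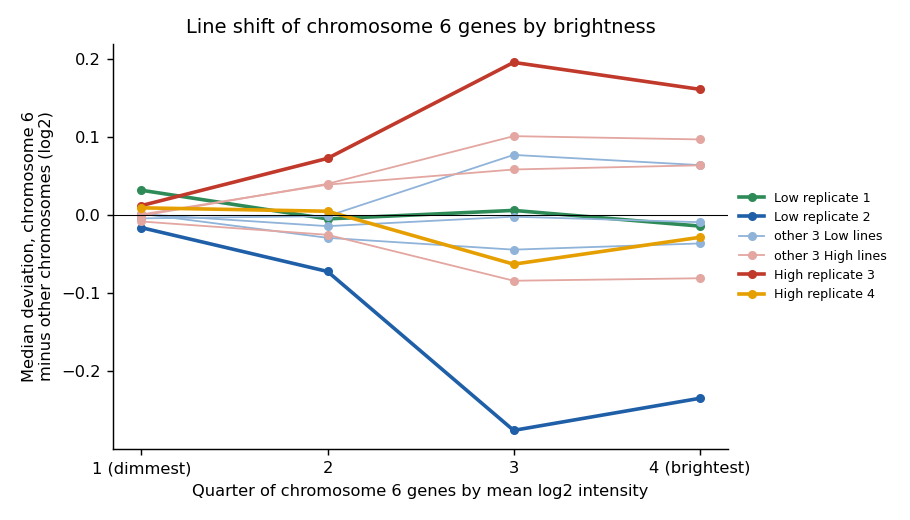
Median deviation of chromosome 6 genes minus that of genes of other chromosomes in the same range of signal (log2, vertical axis) for 4 equal groups of the 791 tested members by mean signal (horizontal axis), 1 line for each clone. The lines start close together in the dimmest group and are spread from -0.28 in Low replicate 2 to 0.20 in High replicate 3 in the third group.

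Probe sets that had not been used gave the same order of these 2 lines. Besides the brightest probe set of each gene, 64 further probe sets of members were on the array, and 51 of them, of 38 genes, were bright enough. Their median deviation was -0.22 in Low replicate 2, with 43 of 51 below 0, and 0.27 in High replicate 3, with 44 of 51 above 0. Some genes, such as Adamts9 and Cbx3, gave several of these probe sets, so the counts repeat genes. The 1279 further probe sets of other chromosomes had medians of 0.014 and 0.028 in these 2 lines. The further probe sets also stood at 0.16 in Low replicate 1 and -0.20 in High replicate 4, where other chromosomes had 0.050 and -0.069. They read the same RNA on the same arrays, so they are a second measurement of these lines and not further samples.

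With a stricter filter on dim genes, and with each line's trend over brightness removed, 536 members remained in 486 windows. This setting was chosen after the data had been seen. Low replicate 2 was then below -0.15 in 476 windows (97.9%). They formed 3 stretches, of which the first held 494 genes, from Samd9l, the first gene, to Mgp, with a median of -0.21. High replicate 3 was above 0.15 in 328 windows (67.5%). Its median over the chromosome was 0.15 and that of Low replicate 2 was -0.20. Other chromosomes of Low replicate 2 were also shifted in this setting, with 0.157 on chromosome 11 and -0.14 on chromosome 15. That chromosome 11 median was slightly larger in size than the 0.155 of chromosome 6 in High replicate 3. The first stretch of Low replicate 2 thus took in all 5 found before.

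Some lines changed level along the chromosome. In the same setting, each line was divided once, with a least number of genes kept on each side. The place taken was the one where the genes lay closest, in summed distance, to the median of their own side. In Low replicate 1 that place was just after Serbp1: the genes before it had a median of 0.076 and those after it -0.049. Low replicate 3 went from 0.069 to -0.034 between Osbpl3 and Cycs, and Low replicate 5 from 0.018 to -0.061 between Tigd2 and Gprin3. High replicate 5 went from 0.039 to -0.068 between Ccdc136 and Flnc, near the start of the chromosome. High replicate 1 went the other way, from -0.0063 to 0.085, between Cbx3 and Snx10. High replicate 4 went from -0.090 to -0.0068 between Rmnd5a and Rnf103. The first 51 genes were lower than the rest in Low replicate 2, with -0.30 up to Fam71f1 and -0.20 from Calu on. The places of Low replicate 2 and High replicate 5 lay close to the least number of genes allowed on a side. The places differed from line to line, and each was chosen from the same values, so the sizes have no test. The step in size had a median of 0.087 over the 10 lines, against 0.040 over the 190 line and chromosome pairs elsewhere, of which the largest was 0.61.

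Divided at Serbp1 in every line, with 186 genes before and 350 after, Low replicate 2 had -0.22 and -0.20 and High replicate 3 had 0.13 and 0.17. Neither of these 2 lines crossed 0 there. Low replicates 1, 3 and 5 did, from positive to negative, and High replicates 1 and 2 moved up, from 0.022 to 0.085 and from 0.045 to 0.10. High replicate 4 moved from -0.087 to -0.0098.

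**Figure D4:**
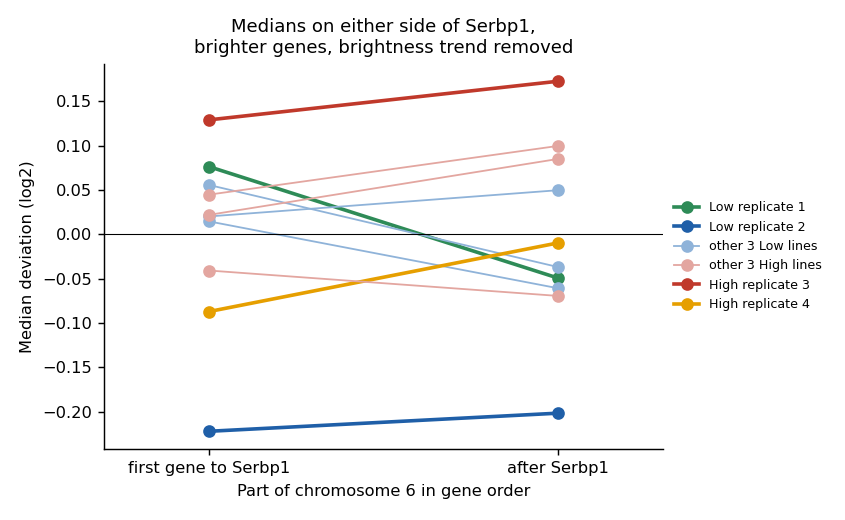
Median deviation (log2, vertical axis) of the 186 brighter members from the start of the chromosome to Serbp1 and of the 350 after it (horizontal axis), 1 line for each clone, after removal of the trend over brightness. Low replicate 2 stays below 0 and High replicate 3 above 0 in both parts, and Low replicates 1, 3 and 5 pass from above 0 to below 0.

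The 4 genes with promoters shown are extreme members and not typical of the small shared shift. Their SD over lines ran from 0.27 to 0.39, against a median of 0.16 over the members. Ndufa4 had log2 signals of 11.56, 10.81, 11.70, 10.94 and 11.58 in Low replicates 1 to 5. In High replicates 1 to 5 it had 11.68, 11.62, 11.93, 10.96 and 11.63. Low replicate 2 was lowest, High replicate 3 highest, and Low replicate 4 and High replicate 4 were also low, so the classes overlapped. Bid had 11.40, 10.99, 11.53, 11.66 and 11.57 in the Low lines and 11.87, 11.74, 11.96, 11.58 and 11.43 in the High lines. Low replicate 2 stood apart at the bottom, 0.42 below the next lowest line.

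Aqp1 had 12.72, 12.18, 12.93, 12.73 and 13.05 in the Low lines and 13.07, 13.07, 13.09, 12.56 and 12.95 in the High lines. Mthfd2 had 11.75, 11.67, 12.01, 12.17 and 12.12 in the Low lines and 12.29, 12.44, 12.44, 12.02 and 11.80 in the High lines. In Aqp1 the low lines were Low replicate 2 and High replicate 4. In Mthfd2 Low replicates 1 and 2 and High replicate 5 were low, and High replicates 2 and 3 were equal to 2 decimals. These 4 genes were picked for their range in these 2 lines, so their values are a description.

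Genes of protein synthesis and the secretory pathway had more members at their highest in High replicate 3 than any other list. Of 35 such genes listed, 33 were tested, and 23 of the 33 were lowest in Low replicate 2 and 19 highest in High replicate 3. Their median deviations were -0.17 and 0.19 in these lines. Snrpg, a core protein of splicing particles, had 12.51, 12.02, 12.39, 12.10 and 12.44 in the Low lines and 12.45, 12.65, 12.79, 12.23 and 12.43 in the High lines. Sec61a1 deviated by -0.16 and 0.17 in the 2 lines, Pcbp1 by -0.18 and 0.23, Hnrnpf by -0.11 and 0.15, and Pdia4, a protein disulfide isomerase, by -0.14 and 0.13. The lists were assembled from textbook roles with earlier results of these data known, and such counts have to be read beside the 36.7% and 21.4% of all members. The shift was also larger in brighter members, and Sec61a1, Pcbp1, Hnrnpf and Pdia4 lay in the brightest group. Shares among members of like signal were not counted for any list. The counts and medians of a list thus do not set function apart from brightness.

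The 23 genes of cell cycle and DNA repair had the lowest median in Low replicate 2 of the 7 lists, at -0.29, with 18 of 23 lowest there. In High replicate 3 their median was 0.23, with 9 highest there. Rad18, a ubiquitin ligase of post-replication repair, had 12.61, 12.24, 12.62, 12.79 and 12.54 in the Low lines and 12.58, 12.82, 12.78, 12.59 and 12.33 in the High lines. Nup205, a scaffold protein of the nuclear pore, deviated by -0.33 and 0.05 in the 2 lines. Ccnd2, a D-type cyclin, did not follow: it lay between 13.43 and 13.57 in all 10 lines. Ccnd2 was among the brightest members, and its deviations were 0.05 and 0.04.

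Transcription factors and chromatin proteins (39 tested) had medians of -0.13 and 0.19 in the 2 lines, with 13 lowest in Low replicate 2 and 13 highest in High replicate 3. Metabolic genes (27 tested) had -0.12 and 0.17, with 11 and 7. Genes of caveolae, cytoskeleton and adhesion (28 tested) had -0.13 and 0.11, with 11 and 5. Receptors and RAS-MAPK signalling genes (28 tested) had -0.17 and 0.14, with 12 and 6. The 16 tested genes on the list named matrix and secreted proteins had -0.14 and 0.040, with 6 and 2. All 7 lists thus had a negative median in Low replicate 2 and a positive one in High replicate 3.

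Within these lists the size of the deviation varied from gene to gene. Cav1, the main coat protein of caveolae, deviated by -0.11 and 0.08, close to the medians of its list. The actin gene Actg2 was 12.25 in Low replicate 2 against 12.70 to 13.18 in the other 9 lines. The hepatocyte growth factor receptor gene Met had 11.20, 10.02, 10.86, 10.87 and 10.85 in the Low lines and 10.24, 10.36, 10.69, 10.44 and 10.78 in the High lines. It was lowest in Low replicate 2 but highest in Low replicate 1, so it did not share the high level of High replicate 3. Ezh2, the histone methyltransferase of Polycomb, was 11.78 in Low replicate 2 and between 11.95 and 12.39 elsewhere. The adiponectin receptor gene Adipor2 was 11.09 there and between 11.28 and 11.55 elsewhere.

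The second question was whether chromosome 6 genes differed between the classes. High minus Low was fitted with limma on all 16339 tested genes, and p-values were adjusted over all of them by Benjamini-Hochberg. No member passed an adjusted p of 0.05 (background 0.00612%), and the smallest adjusted p of a member was 0.26. At an unadjusted p under 0.05, 80 members were called (10.1% against 7.95% of all tested genes). Of these, 74 were higher in the High class (9.36% against 3.16%) and 6 were lower (0.759% against 4.79%).

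The balance of the members was tilted to the High side. The difference was positive in 612 of 791 members (77.4% against 58.0% of all tested genes), with a median of 0.064 against 0.021 over all tested genes. The classes did not overlap in 7 members (0.885% against 1.57%), which is no more than elsewhere. The 6 that were higher in every High line were Ptn, Ephb6, Rnf181, Vamp5, Lbx2 and D6Ertd474e (0.759% against 0.526%), and Cacna1c was lower (0.126% against 1.04%). The median SD over the 10 lines was 0.16 in the members and 0.14 in all tested genes.

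The balance was nearer to even without the 2 extreme lines. With all 10 lines, 92.5% of the 80 called members were higher in the High class, against 39.8% of all called genes. That background depended on the centring. With the arrays centred on their medians, 88 members were higher and 4 lower (95.7% higher, against 55.7% of all called genes). Without Low replicate 2 the counts at an unadjusted p under 0.05 were 46 higher and 18 lower (71.9% higher, against 38.4% of all called genes), and the median was 0.039 against 0.020 over all tested genes. Without High replicate 3 they were 59 and 13 (81.9% against 48.0%). Without both, a setting added after the data had been seen, they were 37 and 30 (55.2% against 41.6%), with a median of 0.040 against 0.029 over all tested genes. The share of higher members was thus still above its background in each of these settings. Without High replicate 1 the count of higher members was 38 (84.4% of the called members, against 31.1%). Without High replicate 5 it was 106 (92.2% against 45.4%). There 1 member, Pianp, was past an adjusted p of 0.05 in limma, beside 19 of all tested genes. With a block for the leading digit of each clone's name, 37 members were higher and 4 lower. Of these called members 90.2% were higher, against 41.1% of all called genes. The labels do not say what that digit stands for.

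The members with the smallest p on the higher side were genes of different kinds. Vamp5, a vesicle fusion protein, had 10.60, 10.70, 10.60, 10.46 and 10.59 in the Low lines and 11.15, 11.18, 11.23, 10.83 and 10.80 in the High lines. Every High line was above every Low line, and the difference was 0.45 ± 0.09 (SE; limma adjusted p = 0.26). Vamp5 in Low replicate 2 was the highest of the Low lines, in contrast to most members. Ptn, the secreted growth factor pleiotrophin, had 12.81, 12.76, 12.91, 12.92 and 12.97 in the Low lines and 13.37, 13.14, 13.28, 13.01 and 13.14 in the High lines. These values did not overlap either, with a difference of 0.31 ± 0.08 (SE; limma adjusted p = 0.28). Ptn was lowest in Low replicate 2.

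Vgll4, a cofactor of TEAD transcription factors, had 11.63, 11.41, 11.34, 11.48 and 11.63 in the Low lines and 12.05, 12.00, 11.99, 11.55 and 11.93 in the High lines. High replicate 4 alone lay within the Low range, and the difference was 0.40 ± 0.10 (SE; limma adjusted p = 0.29). Olr1, a receptor for oxidised LDL, differed by 0.73 ± 0.17, Pianp, a membrane protein gene, by 0.50 ± 0.12, and C1s1, a complement protease, by 0.92 ± 0.24, all SE, with limma adjusted p from 0.28 to 0.31. In each of these 3 genes High replicate 5 was the lowest of the High lines, and it lay within the Low range.

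On the lower side, Cacna1c, the pore subunit of an L-type calcium channel, had 10.13, 9.91, 10.27, 10.21 and 9.91 in the Low lines and 9.84, 9.23, 9.55, 9.66 and 9.68 in the High lines. All High values were below all Low values, and the difference was -0.50 ± 0.11 (SE; limma adjusted p = 0.28). Low replicate 2 was not low in it: its deviation was 0.09. The other 5 genes were Plxna4 (a semaphorin receptor, -0.47), Vmn1r43 (a vomeronasal receptor, -0.47), Mgp (matrix Gla protein, an inhibitor of calcification, -0.48), Foxp1 (a forkhead repressor, -0.29) and Klrg2 (a lectin-like receptor, -0.25, or -0.16 without High replicate 1), with limma adjusted p from 0.42 to 0.63. All 5 had overlapping classes.

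**Figure D5:**
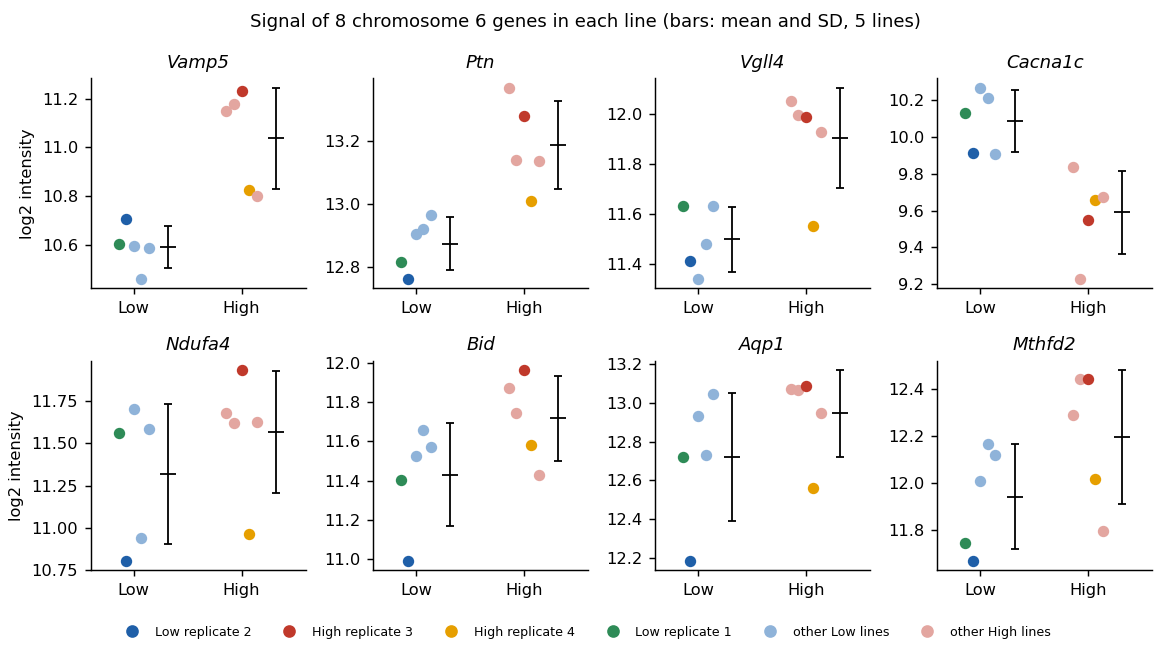
Log2 signal (vertical axes, each with its own range) of 8 chromosome 6 genes in the Low and High lines, 1 point for each line, with the mean and SD of 5 lines beside them. Vamp5, Ptn, Vgll4 and Cacna1c have the classes apart or nearly so, while in Ndufa4, Bid, Aqp1 and Mthfd2 the classes overlap and Low replicate 2 is the lowest point and High replicate 3 the highest.

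By role, no list had a member past the adjusted p of 0.05 in limma. The counts below, at an unadjusted p under 0.05, stand beside 9.36% of members and 3.16% of all tested genes higher, and 0.759% and 4.79% lower. Of the 16 tested genes on the list named matrix and secreted proteins, 7 were higher and 1 lower at an unadjusted p under 0.05, with a median difference of 0.17. The list is not pure: it holds Sumf1, an enzyme of the endoplasmic reticulum, and Htra2, a mitochondrial protease. The higher ones were Ptn, Fbln2 (0.30), Timp4 (an inhibitor of metalloproteinases, 0.24), Sumf1 (0.19), Adamts9 (a matrix protease, 0.52), Vwf (0.16) and Loxl3 (a lysyl oxidase, 0.17), and Mgp was lower. Timp4 was dim, with values from 6.25 to 6.74 over the 10 lines. Of 39 transcription factors and chromatin genes, 6 were higher (Vgll4, Tcf7l1, Ing4, Hdac11, Bhlhe40 and Bhlhe41) and Foxp1 was lower. Bhlhe40, a circadian repressor, differed by 0.40 and its relative Bhlhe41 by 0.40, both with overlapping classes.

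Of 28 receptor and RAS-MAPK genes, 4 were higher (Rerg, Ephb6, Tnfrsf1a and Plxnd1) and Plxna4 was lower. Rerg, a RAS-like growth inhibitor, had 8.66, 8.11, 9.13, 8.06 and 9.05 in the Low lines and 9.75, 9.29, 9.82, 9.23 and 8.88 in the High lines, a difference of 0.79 ± 0.24 (SE; limma adjusted p = 0.40). Of 28 genes of caveolae, cytoskeleton and adhesion, Iqsec1 (0.26), Tspan9 (0.30) and Skap2 (0.21) were higher and none lower. Of the 27 metabolic, 33 protein synthesis and 23 cell cycle genes, none reached an unadjusted p of 0.05. In the last 2 lists, 30 of 33 and 20 of 23 differences were positive, with medians of 0.084 and 0.099, beside 77.4% of members and 58.0% of all tested genes positive. These 2 lists also had the lowest medians of the 7 in Low replicate 2.

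The widest departures of single members in single lines were many times the shift of the chromosome. Gm5886, a predicted gene, had 12.00 in Low replicate 2 and 8.23 in High replicate 2, deviations of 1.80 and -1.99. Gstk1, a mitochondrial glutathione transferase, was 8.79 in High replicate 5 and between 9.73 and 11.29 elsewhere. Mfap5, a microfibril protein, was 10.75 in High replicate 2, with High replicate 1 at 10.61 and the other 8 lines from 8.39 to 9.69. Adcyap1r1, the receptor of the neuropeptide PACAP, was 10.08 in Low replicate 1 and 9.91 in High replicate 3, against 7.89 to 9.51 elsewhere. C1s1 was 7.60 in Low replicate 2, with a deviation of -1.23.

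Large receptor families made up much of what was set aside as dim. Of 46 vomeronasal receptor genes 42 were set aside, of 32 bitter taste receptor genes 28, of 23 killer cell lectin-like receptor genes 21, and all 6 regenerating islet genes. Of 25 C-type lectin genes 10 were tested and of 25 olfactory receptor genes 13, the brightest olfactory receptor at a mean of 7.39. Members of these families have near-identical copies, so a probe set may read several of them. Of the 1062 members 975 were protein-coding, 741 of them tested, and 43 were long non-coding RNAs, 28 of them tested.

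The arrays were alike in their overall level, with medians from 7.74 to 7.84 and a mean correlation of each with the others from 0.987 to 0.993. Markers of fibroblasts were bright in all lines, with Vim at a median of 14.10, Dlk1 at 13.82 and Col1a1 at 12.59, while Cd34 was low at 6.98. Of 4 leukocyte markers, Ptprc, Adgre1 and Itgam were too dim to be tested, while Cd68 lay between 8.50 and 9.04. Of 3 fat cell markers, Adipoq was too dim, while Plin1 lay between 7.86 and 8.36 and Cidec between 7.36 and 7.67. The 4 skeletal muscle markers lay between 6.72 and 9.27, with Actn3 the brightest. Endothelial markers lay between 6.60 and 7.84, and epithelial ones between 6.51 and 8.35. In RNA from many cells, fewer cells of a type and less RNA per cell cannot be told apart. Whether the shifts of chromosome 6 in Low replicate 2 and High replicate 3 go with the number of copies of the chromosome was not tested, since DNA was not measured in the data used here.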

How the data were processed

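Total RNA of 10 clonal lines, 1 array each, was measured on 1-colour arrays after a whole-transcript biotin labelling, per the labels' protocols. The deposited values are log2 signals per probe set that the authors made with RMA, per the submitters' processing notes. RMA forces the arrays to a common distribution, which can shrink shifts shared by many genes, and its settings are not stated in the labels. Of 34760 probe sets, 21640 had 1 gene symbol in the platform annotation, 1321 had several and 11799 were not listed. The gene ID of 21553 was found in the RefSeq table, which gave chromosome and order. The build of the arrays' annotation is not given in the sources used here, so no coordinates of that table are printed.

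The brightest probe set stood for each gene, and genes were tested that lay over the 25th percentile of an array on 5 or more of the 10. High minus Low was fitted over all 16339 tested genes with limma 3.58.1 in R 4.3.3 (lmFit, eBayes, Benjamini-Hochberg at 0.05). The fitted model and the running median over 51 genes were checked on simulated data. Array number, not counting depth, limits the precision. Nothing says that classes hold separate cultures beyond separate clones.

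Named genes were the 6 smallest p-values in each direction (no predicted or non-coding transcripts), the 4 brightest and those with p under 0.05 of each list, ends and brightest 5 of stretches, the 3 largest departures in each direction, and counts of 5 or fewer. Met, Ezh2, Adipor2, Snrpg and the 4 genes with promoters shown were chosen after their values were seen. The members and lists were chosen with earlier results of these data known. Alternatives changed the filter, the probe set rule, the centring, the fit, the window, the threshold and the lines used. No per-sample column was left unused.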

Additional observations from a re-analysis of the deposited data

Results flagged for a closer look

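Among the named chromosome 6 genes and the chromosome 6 medians, 62 sets of 5 lines of a class were examined for a line far from the other 4, and 4 had such a line, against about 3.1 by chance. Ephb6, a receptor of the ephrin family, was 8.41 in High replicate 1 and between 7.90 and 8.04 in the other High lines. Foxp1 was 10.74 in High replicate 2 and between 10.45 and 10.51 in the others. Loxl3 was 12.81 in High replicate 1, against 12.57 to 12.63. Vgll4 was 11.55 in High replicate 4, against 11.93 to 12.05.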

How the results depend on the processing

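No paired analysis was possible because replicate numbers were given in accession order and pair no lines. The chromosome 6 medians of Low replicate 2 (-0.13 to -0.11) and High replicate 3 (0.11 to 0.14) kept their sign without any other line. Low replicate 2 was at -0.20 with the stricter filter, with or without removal of the brightness trend, at -0.22 in further probe sets and at -0.041 in genes set aside. High replicate 3 was at 0.27 in further probe sets but at -0.030 in genes set aside, High replicate 4 at -0.20 and 0.077, and Low replicate 1 at 0.16 in further probe sets. The genes set aside had no background from other chromosomes. The sides of 0 held at 93.6% or more of places in every setting run for both lines, while the shares past the threshold depended on the setting. For Low replicate 2 they were 1.98% with no filter, 95.5% with the stricter filter, 97.9% with the trend removed as well, 13.4% around the median over lines, 0.810% past 0.2 and 81.9% past 0.1. For High replicate 3 they were 13.2%, 74.1%, 67.5%, 18.4%, 0.405% and 74.5% in the same order, 18.4% after repeated quantile normalization and 11.3% with the trend alone removed. For High replicate 4 they were 0% with no filter, past 0.2 or in the widest windows, 0.135% after quantile normalization or removal of the trend, 0.206% with the stricter filter and the trend removed, 1.16% with the left-out genes, 1.48% around the median, 7.04% over 25 genes, 5.93% over even-numbered and 3.23% over odd-numbered genes, and 10.4% past 0.1. The 51 further probe sets fill 1 window, so that it passed the threshold in all 3 lines (100%) is the outcome of 1 place and no share. Past 0.2, 0 lines had a stretch. With 1 line left out, these shares ran from 3.51% to 30.9%, from 15.1% to 43.6% and from 1.62% to 2.70%, and 1 to 3 lines had a stretch.

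With 1 line left out, the members called at an unadjusted p under 0.05 were 38 to 106 higher and 5 to 18 lower. Past the adjusted p were 0 to 1 members, and 7 to 29 were without overlap. Over all tested genes the same fits called 295 to 705 higher and 632 to 833 lower, and 1 to 19 past the adjusted p. Groups without overlap were counted over all tested genes only with all 10 lines (1.57%). Lower members were 10 with the brightness trend removed, beside 737 of all tested genes. They were 13 among clones whose names start with 4, beside 538 of all tested genes. There 296 members had no overlap, since few lines were compared, so this count says little about the members. The block for the leading digit of the name gave 37 higher, beside 278 of all tested genes. Without Low replicate 2 and High replicate 3 there were 37 higher and 30 lower, beside 588 and 826 of all tested genes. Without overlap were 29 members. Of 716 values of 30 named differences, 715 stayed on their side of the threshold and 1 (Pianp without High replicate 5, 0.61, limma adjusted p = 0.028) passed it. Except where stated, the cause was not tested. Probe sets near the background limit what dim genes can show.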

Other observations

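Next to one another on the chromosome lie 4 genes of the first component of complement, C1rl, C1ra, C1s1 and C1s2, which encode serine proteases of the classical pathway or a relative of them. They were singled out after their values were seen. All 4 were lowest in Low replicate 2, as 36.7% of members were, and highest in High replicate 1, not in High replicate 3. C1s1 deviated by -1.23 in Low replicate 2, against a median of -0.12 over the members. Whether their level goes with the shift of the chromosome was not tested. C1s1 had 8.28, 7.60, 8.89, 8.43 and 8.76 in the Low lines and 9.81, 9.39, 9.50, 9.15 and 8.71 in the High lines. C1s2 had 7.61, 6.93, 8.13, 7.52 and 8.17 in the Low lines and 8.96, 8.49, 8.67, 8.03 and 8.15 in the High lines. High minus Low was 0.31 for C1rl, 0.45 for C1ra, 0.92 for C1s1 and 0.79 for C1s2, with limma adjusted p of 0.66, 0.42, 0.31 and 0.40. C1s1 and C1s2 are near-identical copies, so their probe sets may read one another's RNA and their values are uncertain as separate genes.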
